A study of Mus musculus with 10 samples.

Results

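The NMDA receptor subunit genes Grin1, Grin2a, Grin2b, Grin2c, Grin2d and Grin3a were followed in the neocortex of old and young mice. The 6 genes were taken by name, as the members of a receptor family and not by a rule on their values. Earlier results of these data were known when they were chosen. The genes were found through the gene identifiers of the array annotation. They are 6 of the 17876 genes that a probe set of the array named alone, and they had 10 probe sets in all: Grin2a, Grin2c and Grin2d had 1 each, Grin1 and Grin2b had 2 each, and Grin3a had 3. The study held 10 male mice of the B6xC3 F1 hybrid strain, 5 aged 30 months (mice numbered 2 to 6) and 5 aged 5 months (mice numbered 1 to 5), with neocortex RNA of each mouse on its own Affymetrix expression array. All 10 mice were housed singly and fed the same control diet, AIN-93M, per the labels, and no mutation or drug separates the groups. Age was the single factor that the labels state, and each age is represented by males of a single hybrid cross. The array names of all 5 mice of 30 months begin with SK, and those of the 5-month mice do not. The labels do not say what this prefix stands for, and whatever it marks cannot be told apart from age.

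NMDA receptors are glutamate-gated cation channels of excitatory synapses, and they let calcium into the cell when glutamate binds while the membrane is depolarised. Every receptor contains GluN1, the product of Grin1, which binds the co-agonist glycine or D-serine. GluN1 is joined by GluN2 subunits, the products of Grin2a to Grin2d, which bind glutamate and set the kinetics of the channel, or by the glycine-binding GluN3A, the product of Grin3a, which lowers calcium permeability. In rodent forebrain Grin2b and Grin3a are prominent early in life, Grin2a rises during postnatal development, Grin2c is best known from cerebellar granule cells and is also found in cortical astrocytes, and Grin2d is found in interneurons.

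The promoter windows of Grin1 and Grin2c are shown because Grin1 was the only subunit gene that passed the test across genes and Grin2c came closest to it. Each window runs, 5′ to 3′, from 250 bases before the annotated transcription start to 20 bases after it, on the minus strand, and is credited to RefSeq with build GRCm38.p6. The table of promoters held 3 of the 6 genes, Grin1, Grin2c and Grin2d. Capitals mark the GC box, GGGCGG, searched on both strands.
Grin1 at chr2:25319168-25319437: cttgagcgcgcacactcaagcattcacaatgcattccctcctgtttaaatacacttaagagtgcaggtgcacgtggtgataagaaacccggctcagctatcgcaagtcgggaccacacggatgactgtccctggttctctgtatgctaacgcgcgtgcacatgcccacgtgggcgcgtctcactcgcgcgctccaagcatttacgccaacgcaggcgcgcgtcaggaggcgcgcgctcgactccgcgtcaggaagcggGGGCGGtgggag
Grin2c at chr11:115267224-115267493: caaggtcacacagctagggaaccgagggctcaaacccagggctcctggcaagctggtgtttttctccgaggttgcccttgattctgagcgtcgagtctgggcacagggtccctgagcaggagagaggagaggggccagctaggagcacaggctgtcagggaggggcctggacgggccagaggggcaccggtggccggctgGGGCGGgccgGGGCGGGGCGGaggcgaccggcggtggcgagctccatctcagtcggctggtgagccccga
The Grin1 window had 60.4% G or C and 29 CpG, and the Grin2c window had 68.9% G or C and 17 CpG, beside a median of 52.6% G or C over the 32544 promoter windows of the table. Grin1 had 1 GC box, 8 bases after the start, and it overlaps a match to the Egr consensus GCGNGGGCG that begins 4 bases after the start. Grin2c had 3 GC boxes, beginning at positions -50, -40 and -35 counted from the start, of which the last 2 overlap by 1 base. Neither window held TATAAA, and the Grin2d window held none of the 3 motifs. A GC box was present in 34.4% of all windows and 3 or more in 9.70%, the Egr consensus in 5.18% and TATAAA in 12.8%. These matches describe the sequence and say nothing of binding.

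The arrays are described here by their signal, the linear brightness of a probe set as deposited, and array medians lay between 114.5 and 122.6. Changes are differences of log2 signal, 30 months minus 5 months, from limma fits across all genes or all probe sets, with 95% intervals and Benjamini-Hochberg adjusted p-values over the whole table, and a call is an adjusted p under 0.05. A probe set entered the fit across genes if its mean log2 signal exceeded the median of all probe sets, 6.89, which is a signal of about 118.5, and the brightest probe set stood for its gene. All 6 markers of cortical glutamatergic neurons lay above that filter. So did genes listed as markers of other regions and cells, among them all 4 striatal and all 3 thalamic markers. The hippocampal markers Prox1 and Wfs1, the cerebellar granule cell markers Cbln1 and Neurod1, the meningeal marker Dcn and the choroid plexus marker Ttr also lay above the filter. Below it lay Gabra6 and Cbln3 of the cerebellar, Dsp of the hippocampal, Kl and Folr1 of the choroid plexus and Lum and Col1a1 of the meningeal markers. Whether neocortical cells also express the listed genes above the filter was not tested, so their signal does not show tissue from other regions. The choroid plexus gene Ttr ranged from 2898 to 10851 at 30 months, against 7969 to 10541 at 5 months. Signals of different probe sets depend on the probes and are not compared with each other, and in bulk tissue fewer cells of a type and less RNA per cell cannot be told apart.

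One subunit gene, Grin1, was called different between the ages. Of the 6 genes, 4 (Grin1, Grin2b, Grin2c and Grin3a) passed the filter and were tested across genes, while Grin2a and Grin2d lay below it. Grin1 was called higher at 30 months and none of the 4 was called lower, beside 34.0% of all 11963 tested genes called higher and 12.3% called lower (46.3% in either direction). The median change of the 4 tested genes was 0.17, beside 0.08 over all tested genes. Across all 45037 probe sets without a filter, 1 of the 10 subunit probe sets was called, beside 22.4% of all probe sets (15.0% higher and 7.44% lower). Of the 10 changes, 8 were above 0 and 2 below 0, and that of Grin2b 1431700_at was only 0.00080. The share of all probe sets with a change above 0 was not computed.

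**Figure D1:**
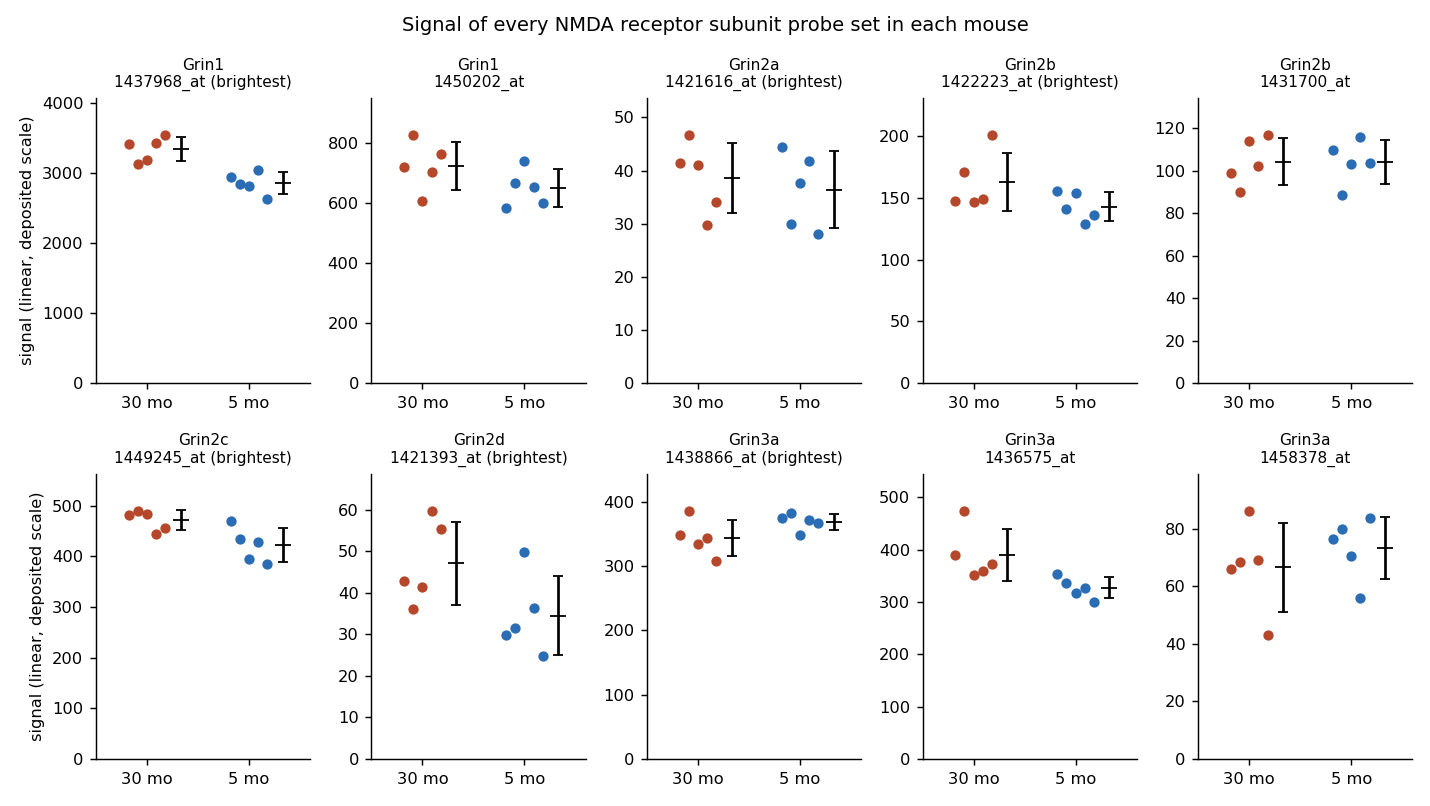
Signal (linear, as deposited) of each of the 10 subunit probe sets in every mouse, 30 months at the left and 5 months at the right of each panel, 1 point per mouse, with the mean and SD (n = 5 each) as bars and each vertical axis starting at 0. The points of Grin1 1437968_at do not overlap between the ages, while those of the other 9 probe sets do. Of all probe sets of the array, 16.5% did not overlap in either direction, and in 12.0% every 30-month mouse lay above every 5-month mouse.

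Grin1, which encodes the subunit that every NMDA receptor needs, was higher at 30 months. Its brightest probe set, 1437968_at, had signals of 3426.86, 3137.65, 3186.65, 3432.62 and 3546.82 in the 30-month mice 2 to 6, against 2942.48, 2843.24, 2821.12, 3051.74 and 2632.88 in the 5-month mice 1 to 5. Every 30-month mouse lay above every 5-month mouse, which was also so for 24.5% of all tested genes, while in 5.75% every 30-month mouse lay below. The log2 signal averaged 11.71 ± 0.08 at 30 months and 11.48 ± 0.08 at 5 months (SD, n = 5 each). The change was 0.23 (SE 0.05, interval 0.12 to 0.33), a 1.17-fold higher signal, with an adjusted p of 0.00233 in limma's fit across genes. Of all tested genes, 38.8% had a larger absolute change. The change of Grin1 was 0.15 above the median change of all tested genes. Of 6 pan-neuronal markers none was called (median change -0.03), and 4 were called lower with the same median of the tested genes. Of 6 cortical glutamatergic markers, 2 were called higher and 1 lower (median 0.04), beside 34.0% and 12.3% of all tested genes. The part of these cells in the Grin1 signal was not tested.

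The call of Grin1 held in the fit across genes under every scaling tried, with a smaller change where the arrays were set to the same median of the tested genes (0.13, adjusted p = 0.0310). That scaling lowers every change by 0.10. In limma's fit over all probe sets, the adjusted p of 1437968_at was 0.00783 with the deposited scaling and 0.0591 with the median of the tested genes. The second Grin1 probe set, 1450202_at, had signals of 720.19, 827.18, 606.04, 705.48 and 763.01 at 30 months, against 582.63, 669.19, 741.97, 654.98 and 602.15 at 5 months. Its values overlapped between the ages, with 4 of the 5 old mice above the median of the young mice. Its change was 0.15 (SE 0.09, interval -0.04 to 0.35; adjusted p = 0.238 in limma's fit over all probe sets), and it was 0.035 with quantile normalization and 0.052 with the median of the tested genes.

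No unequal change of the 2 Grin1 probe sets was detected. The log2 ratio of 1450202_at over 1437968_at differed by -0.07 between the ages (SE 0.10; adjusted p = 0.656, exact permutation test, two-sided). With this SE, the ratio could not tell whether 1450202_at changed as 1437968_at did or not at all. After the mean of each age was subtracted, the signals of the pair correlated with r = 0.09 over the 10 arrays. The array annotation derives 1450202_at from a full-length mRNA and 1437968_at from a stack of expressed sequence tags. Grin1 lies at chr2:25291177-25319187 (GRCm38.p6), and the antisense gene Grin1os lies within it at chr2:25291258-25298660. Which strand and exon the probes match was not tested.

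Grin2a encodes GluN2A, the subunit that gives fast-decaying receptors in adult cortex. Its one probe set, 1421616_at, had signals of 41.37, 46.65, 41.08, 29.79 and 34.03 in the 30-month mice, against 44.37, 30.02, 37.71, 41.88 and 28 in the 5-month mice. These values lie below the filter on low signal and overlapped between the ages. The change was 0.09 (SE 0.18, interval -0.31 to 0.49; adjusted p = 0.764 in limma's fit over all probe sets). A change in Grin2a of the size of that of Grin1, in either direction, lies within this interval and was not detectable at this signal.

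Grin2b encodes GluN2B, the subunit that gives slowly decaying receptors and binds calcium/calmodulin-dependent kinase II. Its brightest probe set, 1422223_at, had signals of 147.48, 170.96, 146.51, 149.45 and 200.81 at 30 months, against 155.5, 141.15, 153.94, 128.76 and 135.81 at 5 months. All 5 old mice lay above the median of the young mice, and mouse 6 was the highest of all. The change was 0.18 (SE 0.10, interval -0.04 to 0.40), with an adjusted p of 0.163 in limma's fit across genes, so it was not called. Without old mouse 6 it was 0.10 (adjusted p = 0.390), and with the median of the tested genes 0.080 (adjusted p = 0.560). The second probe set, 1431700_at, lay below the filter, with signals of 90.16 to 116.71 (median 102.04) at 30 months and 88.46 to 115.85 (median 103.76) at 5 months. Its change was 0.00080 (SE 0.10, interval -0.23 to 0.23; adjusted p = 0.999 in limma's fit over all probe sets). The log2 ratio of 1431700_at over 1422223_at differed by -0.18 between the ages (SE 0.13; adjusted p = 0.444, exact permutation test), and after subtraction of the age means the pair correlated with r = 0.10 over 10 arrays.

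**Figure D2:**
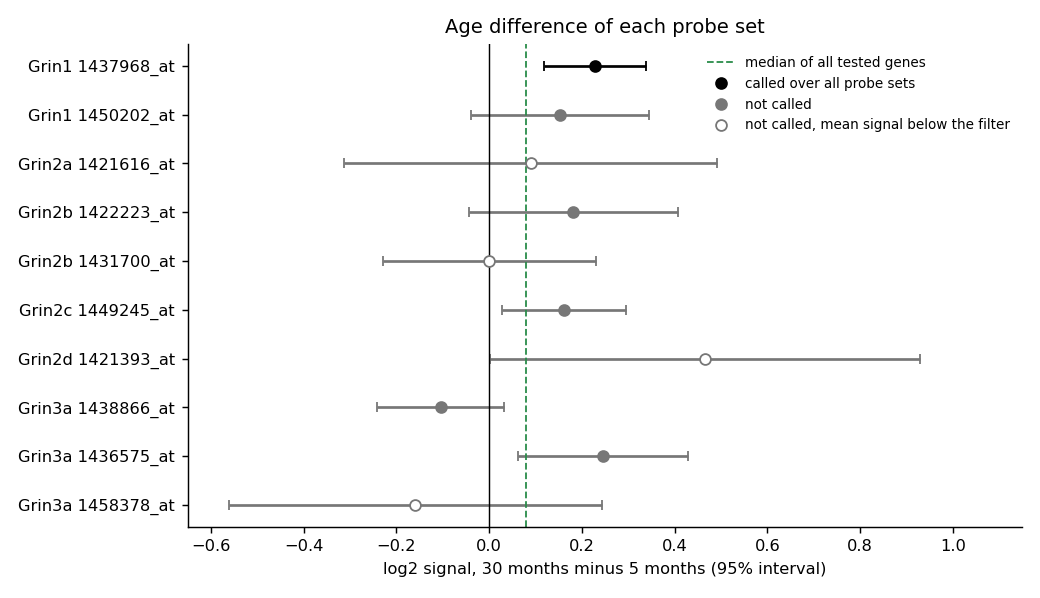
Change of each subunit probe set (horizontal axis, log2 signal at 30 months minus 5 months) with its 95% interval from limma's fit over all 45037 probe sets, and a dashed line at 0.08, the median change of all tested genes. Grin1 1437968_at (0.23) is the only filled black point, called; open points mark the 4 probe sets below the filter, whose intervals are wider than those of the 6 above it.

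The balance of the GluN2A and GluN2B genes, which shifts during postnatal development, was read as a ratio within each array. The Grin2a probe set lay below the filter on low signal, which limits the ratios that use it. The level of a ratio depends on the probes, so only its age difference is read. The log2 ratio of the brightest probe sets of Grin2a over Grin2b averaged -2.09 ± 0.34 at 30 months and -1.99 ± 0.28 at 5 months (SD, n = 5 each). The ratio differed by -0.09 (SE 0.20; exact permutation p = 0.643, and 0.643 after adjustment over the 3 ratios computed). Relative to Grin1, the ratio of Grin2a differed by -0.14 (SE 0.18; exact permutation p = 0.437, adjusted 0.643) and that of Grin2b by -0.05 (SE 0.11; exact permutation p = 0.635, adjusted 0.643). None of the 3 ratios separated the ages. The standard errors of the ratios with Grin2a were close to the size of the Grin1 change, so a shift of that size would not be seen in them.

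Grin2c encodes GluN2C, a subunit with weak magnesium block. Its probe set, 1449245_at, had signals of 481.8, 489.67, 483.02, 444.51 and 456.43 at 30 months, against 468.77, 433.61, 394.55, 428.95 and 384.17 at 5 months. All 5 old mice lay above the young median, and the ages overlapped through young mouse 1. The change was 0.16 (SE 0.06, interval 0.02 to 0.30), a 1.12-fold higher signal, with an adjusted p of 0.0555 in limma's fit across genes, so it was not called. Without young mouse 1 the change was 0.20 (adjusted p = 0.0214), and with the arrays set to the same median over all probe sets it was 0.18 (adjusted p = 0.0474). With quantile normalization it was 0.069 (adjusted p = 0.372) and with the median of the tested genes 0.060 (adjusted p = 0.413).

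Markers of cell types that are known to express Grin2c were read beside it. Of all tested genes, 34.0% were called higher at 30 months and 12.3% lower. Every 30-month mouse lay above every 5-month mouse in 24.5% of them and below in 5.75%. All 6 of 6 astrocyte markers were called higher at 30 months, with a median change of 0.56 and none below the filter, and 5 of the 6 were called with the same median of the tested genes. Their summed signal was 13425 to 14753 at 30 months, against 8970 to 10282 at 5 months, without overlap. Of the 4 cerebellar granule cell markers, 2 were below the filter, 1 was called higher and 1 lower, and their summed signal was 794 to 944 at 30 months, against 847 to 949 at 5 months. Of the 3 thalamic markers, 2 were called lower, and their summed signal was 984 to 1129 at 30 months, against 1167 to 1302 at 5 months. The part of these cell types in the Grin2c signal was not tested.

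Grin2d encodes GluN2D, whose receptors decay very slowly. Its probe set, 1421393_at, lay below the filter, with signals of 42.72, 36.16, 41.28, 59.69 and 55.39 at 30 months, against 29.7, 31.52, 49.82, 36.31 and 24.81 at 5 months. All 5 old mice lay above the young median, and young mice 3 and 4 lay within the old range. The change was 0.47 (SE 0.21, interval 0.00 to 0.93), with an unadjusted p of 0.0494 and an adjusted p of 0.141 in limma's fit over all probe sets, so it was not called. Of the 6 interneuron markers, 2 were called higher, beside 34.0% of all tested genes: the vesicular GABA transporter Slc32a1 (0.28) and parvalbumin Pvalb (0.37). The other 4 were not called: Gad1 (-0.02), Gad2 (0.01), Sst (-0.005) and Vip (0.08). The summed signal of the 6 markers was 15147 to 16521 at 30 months, against 14656 to 15200 at 5 months. The part of interneurons in the Grin2d signal was not tested.

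Grin3a, which encodes GluN3A, had probe sets whose changes differed in sign. On the brightest probe set, 1438866_at, signals were 348.01, 385.95, 333.83, 343.04 and 308.51 at 30 months, against 374.93, 382.07, 348.43, 371.55 and 367.75 at 5 months. All old mice but mouse 3 lay below the young median. The change was -0.10 (SE 0.07, interval -0.25 to 0.04; adjusted p = 0.206 in limma's fit across genes). On 1436575_at, signals were 389.2, 474.1, 352.25, 359.19 and 371.89 at 30 months, against 353.04, 337.14, 317.84, 327.25 and 299.54 at 5 months. Here 4 of the 5 old mice lay above every young mouse, and old mouse 4 fell just below the highest young mouse. The change was 0.25 (SE 0.08, interval 0.06 to 0.43), a 1.19-fold higher signal with an adjusted p of 0.0550 in limma's fit over all probe sets, just short of a call.

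The choice of 1438866_at to stand for Grin3a rests on a near tie, since its mean log2 signal exceeded that of 1436575_at by 0.00074. Leaving out any 1 of the 5 young mice made 1436575_at the brightest, and the gene's change was then 0.21 to 0.27 (adjusted p = 0.0229 to 0.0627 in limma's fit across genes, called without young mouse 1, 2 or 4). Within each array, the log2 ratio of 1436575_at over 1438866_at was 0.17 ± 0.11 at 30 months (range 0.07 to 0.30) and -0.18 ± 0.08 at 5 months (range -0.30 to -0.09; SD, n = 5 each). The ratio was higher in every old mouse than in every young mouse and differed by 0.35 (SE 0.06; exact permutation p = 0.00794, the smallest these groups allow, and 0.0317 after adjustment over the 4 ratios within a gene). With any 1 mouse left out the difference was 0.32 to 0.38. A ratio within an array does not depend on a scaling factor of that array, and it shows unequal change of the pair and not which of them changed. How often the probe set pairs of other genes separate the ages in this way was not computed. Of all probe sets taken singly, 16.5% did not overlap between the ages.

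**Figure D3:**
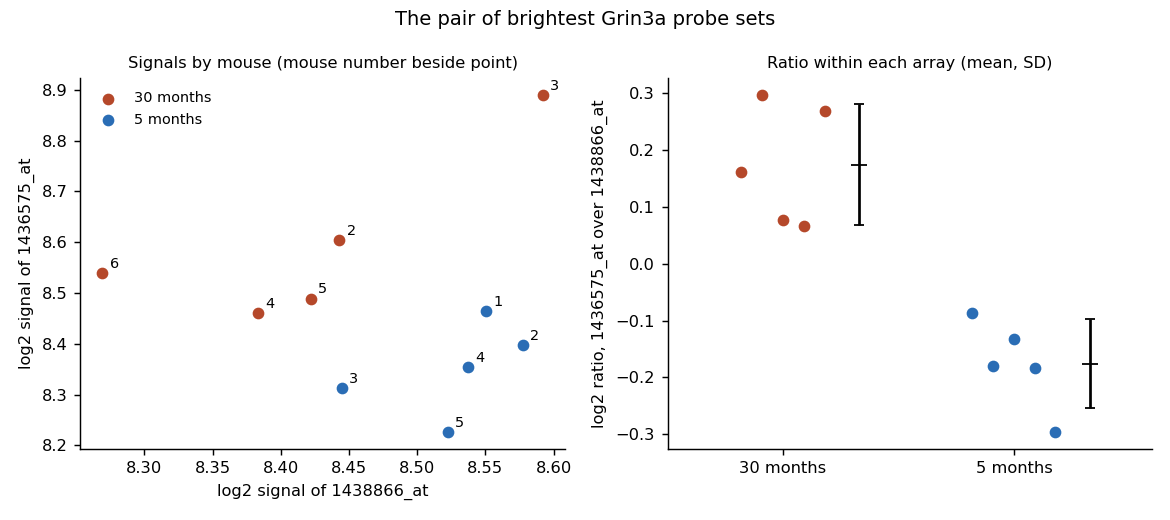
Left, log2 signal of Grin3a 1436575_at (vertical) against 1438866_at (horizontal) in each mouse, with mouse numbers beside the points; right, the log2 ratio of 1436575_at over 1438866_at per mouse, 30 months left of 5 months, with mean and SD (n = 5 each). The old mice have ratios of 0.07 to 0.30 and the young mice of -0.30 to -0.09. After subtraction of the age means the signals of the pair correlated with r = 0.74 over the 10 arrays, with old mouse 3 the highest on both.

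After the mean of each age was subtracted, these 2 Grin3a probe sets correlated with r = 0.74 over the 10 arrays. Old mouse 3 was the highest of all mice on both (385.95 and 474.1). Old mouse 6 was the lowest on 1438866_at (308.51) and above old mice 4 and 5 on 1436575_at (371.89), so the order of the mice was not the same on both. The array annotation derives all 3 Grin3a probe sets from expressed sequence tags, and the gene lies at chr4:49661611-49846023 (GRCm38.p6). Which part of the transcript each matches was not tested. The third probe set, 1458378_at, lay below the filter, with signals of 42.9 to 86.19 (median 68.5) at 30 months and 55.81 to 83.69 (median 76.43) at 5 months. Its change was -0.16 (SE 0.18, interval -0.56 to 0.24; adjusted p = 0.577 in limma's fit over all probe sets). Its ratio over 1438866_at differed by -0.05 (SE 0.18; adjusted p = 0.746, exact permutation test).

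The calls of the Grin3a probe sets depended on the scaling between arrays. The fall of 1438866_at was called in the fit across genes after quantile normalization (-0.18, adjusted p = 0.0269) and with the same median of the tested genes (-0.21, adjusted p = 0.0147), and not with the deposited scaling or the same median over all probe sets. The rise of 1436575_at was called in the fit over all probe sets with the same median over all probe sets (0.27, adjusted p = 0.0474) and not with the deposited scaling or the other 2. Without old mouse 4 (0.28, adjusted p = 0.0430) and with array weights (0.24, adjusted p = 0.0492) 1436575_at was also called in limma's fit over all probe sets. No scaling turned the direction of either probe set.

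**Figure D4:**
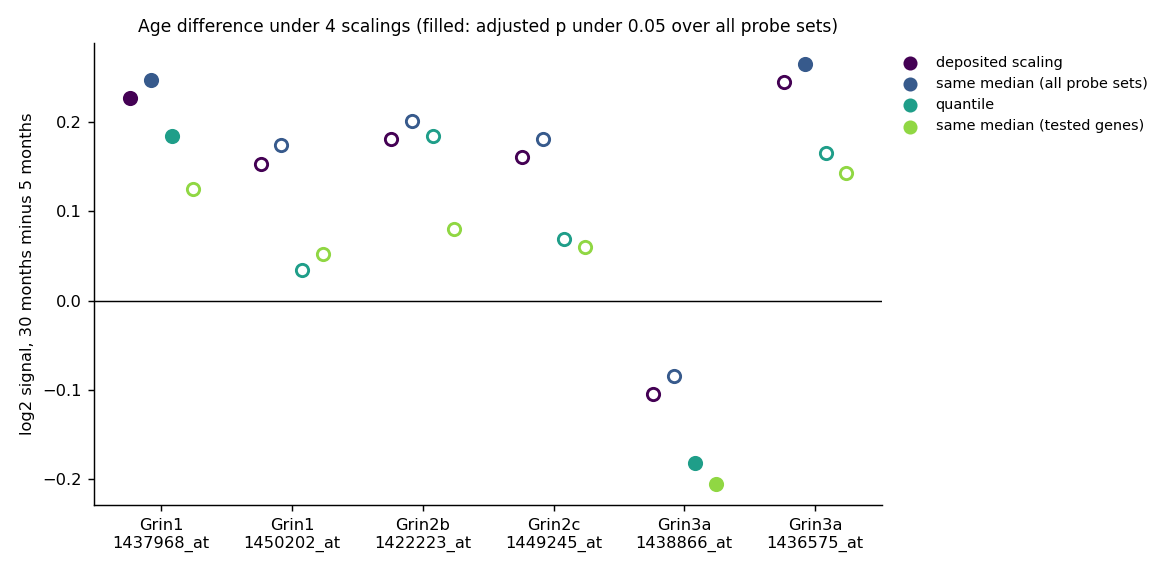
Change of the 6 subunit probe sets above the filter (vertical axis, log2 signal at 30 months minus 5 months) under 4 scalings, filled where the adjusted p over all probe sets was under 0.05. Grin1 1437968_at is filled under 3 of the 4, and the 2 Grin3a probe sets stay on opposite sides of 0 under each.

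The authors' deposited table compared the ages for each probe set with a signed fold, its lower bound and a p-value. None of the 10 subunit probe sets was marked as meeting the criteria of that table, a lower bound above 1.2 and a p-value of at most 0.1. The authors' deposited table marked 4034 probe sets, 8.96% of all. Recomputed from the bound and p as given, 3890 probe sets met the criteria. For Grin1 1437968_at the authors' deposited table gave a fold of 1.17 with a lower bound of 1.1 and a p of 0.004489. For Grin3a it gave 1.2 for 1436575_at and -1.08 for 1438866_at, the opposite signs again in the authors' deposited table.

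The proteins around the receptor were read from lists of related genes, beside 34.0% of all tested genes called higher and 12.3% lower. Of 10 scaffold genes, 8 were tested, 5 were called higher, none lower and 3 were not called, with a median change of 0.18. Dlg2 (PSD-93, change 0.19, adjusted p = 0.00276), Shank3, which links the complex to actin (0.20, adjusted p = 0.00358), Dlg1 (SAP97, 0.15, adjusted p = 0.00905) and Dlg3 (SAP102, 0.17, adjusted p = 0.00963) had the smallest adjusted p in limma's fit across genes, and Dlg4 (PSD-95) was the fifth. These calls were small and depended on the scaling: 1 of the 8 was called after quantile normalization and 0 with the same median of the tested genes. Dlg2, Dlg1 and Dlg3 encode membrane-associated guanylate kinases that bind the tails of GluN2 subunits, as does Dlg4. The scaffold median (0.18) stood beside a change of 0.23 for Grin1 and a median of 0.08 over all tested genes.

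Of 14 signalling genes that act at or below the receptor, 12 were tested, 3 were called higher and 2 lower, and 7 were not called, with a median change of 0.05. These counts are close to the shares over all tested genes, 34.0% higher and 12.3% lower. The tyrosine kinase Src, which phosphorylates GluN2 subunits, was called higher (0.27, adjusted p = 0.00651 in limma's fit across genes), as was the neuronal nitric oxide synthase Nos1 (0.30, adjusted p = 0.0152), while the kinase subunit Camk2b (-0.21, adjusted p = 0.00896) and the transcription factor Creb1 (-0.45, adjusted p = 0.0240) were called lower. Src, Camk2b and Creb1 each had 1 other probe set called in the opposite direction. The remaining called gene, higher, was the kinase Ptk2b. The split moved to 0 higher and 3 lower after quantile normalization, and to 1 higher and 5 lower with the same median of the tested genes.

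The genes that make, carry or remove the co-agonists D-serine and glycine had the largest median of the 5 lists, 0.28. Since the list mixes supply and removal, its counts do not give a direction of co-agonist supply. Of 8 genes, 6 were tested, 5 were called higher, none lower and 1 was not called. The neutral amino acid transporter Slc7a10, which carries D-serine and glycine (change 0.48, adjusted p = 0.000214), the serine racemase Srr (0.37, adjusted p = 0.000241), the serine synthesis enzyme Psat1 (0.34, adjusted p = 0.000494) and the glycine transporter Slc6a9 (0.23, adjusted p = 0.0202) had the smallest adjusted p in limma's fit across genes, and the phosphoserine phosphatase Psph was the fifth. One other Srr probe set was called in the opposite direction. Of the 6, 3 were called higher after quantile normalization and 3 with the same median of the tested genes. Slc6a9 and Psat1 are known from astrocytes, whose 6 markers were also called higher, with a median change of 0.56, and the part of astrocytes in these values was not tested.

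Among 8 genes of receptor transport and partner proteins, all tested, 3 were called higher, 3 lower and 2 were not called, with a median change of 0.02. The Lin7 complex gene Lin7a (0.43, adjusted p = 0.000452), its partner Apba1 (0.35, adjusted p = 0.000765) and the auxiliary protein Neto1 (0.21, adjusted p = 0.00872) were called higher in limma's fit across genes. The kinesin Kif17, which carries GluN2B vesicles along dendrites, was called lower (-0.28, adjusted p = 0.00343), as were Lin7b and Cask, and 1 other Cask probe set was called in the opposite direction. Kif17, Lin7a, Lin7b, Apba1 and Cask kept their direction and call under quantile normalization and the same median of the tested genes. Neto1 lost its call under both, which left 2 higher and 3 lower under each.

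The other ionotropic glutamate receptor genes form AMPA and kainate receptors. Of 9 genes, 8 were tested, 3 were called higher, 1 lower and 4 were not called, counts close to the 34.0% higher and 12.3% lower over all tested genes, with a median change of 0.08. The kainate receptor genes Grik4 (0.44, adjusted p = 0.000341) and Grik2 (0.25, adjusted p = 0.0186) and the AMPA receptor gene Gria4 (0.30, adjusted p = 0.000731) were called higher in limma's fit across genes. The AMPA receptor gene Gria2, whose product limits calcium entry through the channel, was called lower (-0.22, adjusted p = 0.000148). With quantile normalization and with the same median of the tested genes, 2 were called higher and 2 lower. Beside them, the NMDA receptor genes had 1 higher, 0 lower and 3 not called of 4 tested, and the difference between the families was not tested.

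**Figure D5:**
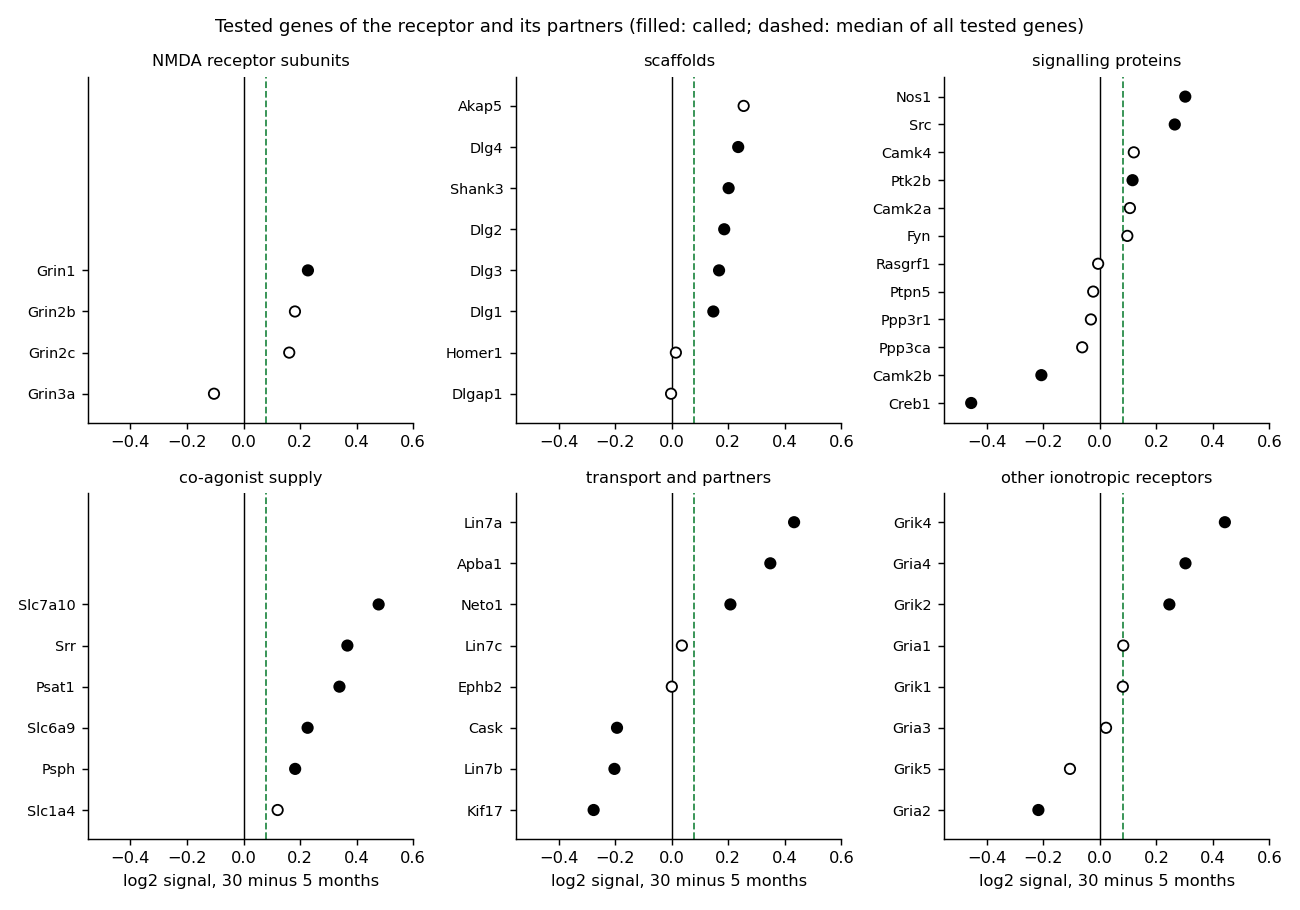
Change of each tested gene (horizontal axis, log2 signal at 30 months minus 5 months), 1 panel for the NMDA receptor subunits and 1 for each of 5 lists of related genes, filled where called in the fit across genes, with a dashed line at 0.08, the median of all tested genes. The subunits run from -0.10 (Grin3a) to 0.23 (Grin1), the signalling genes from -0.45 (Creb1) to 0.30 (Nos1), and all 6 co-agonist genes lie above the dashed line.

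Within an age, correlations between subunit genes had both signs. After subtraction of the age means, r over the 10 arrays between the brightest probe sets of the 4 tested genes, 6 pairs, ran from -0.39 for Grin1 with Grin3a to 0.46 for Grin2c with Grin3a. Each gene also had its own closest genes by the same measure. Those of Grin1 were Igfbp4 (r = 0.94), Shisa4 (0.93) and Ica1 (0.93), and those of Grin2b were Cacng3 (0.96), Tango2 (0.95) and Ndp (0.95). Those of Grin2c were Prdx5 (0.95), Clpb (0.94) and Lsamp (0.94), and those of Grin3a (1438866_at) were Pkib (0.93), the AMPA receptor gene Gria1 (0.92) and Rxylt1 (0.91). Such values are common across so many genes and so few arrays, which share their scaling: r exceeded 0.8 for 149 genes with Grin1, 121 with Grin2b, 200 with Grin2c and 62 with Grin3a.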

How the data were processed

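Neocortex RNA of 5 male mice of 30 months and 5 of 5 months was measured on 1 Affymetrix array per mouse. The deposited intensities are linear signals of 45037 probe sets; the software GCOS is named per the submitters' processing notes, and no source read here gives its version, the background correction or the scaling. Per the file headers, the authors' comparison gives a score per probe set (a signed fold change, negative where the 30-month arrays were lower, with a lower and an upper bound) and a p-value, which holds no number for 62 probe sets.

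Probe sets were named by the gene identifier or accession of the array annotation through a table of GRCm38.p6, which gave 36299 probe sets with 1 gene, 1261 with several and 7477 with none; those with several or none enter the fit over probe sets and no gene. The 55 signals under 1 were raised to 1 before taking log2, on the scaling as deposited. limma 3.58.1 in R 4.3.3 (lmFit, eBayes with trend, term for age, two-sided) was fitted across 11963 genes, each by its brightest of 22518 probe sets above the median, and across all probe sets without a filter. Detection calls were not used here. Log2 ratios were compared by exact permutation of the age labels. The fit was tested on simulated data. Precision is limited by the number of arrays, and each mouse is 1 sample.

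The named genes are all 6 subunits with every probe set, the called genes with the 4 smallest adjusted p of each related list (the others counted, and named where few), and the 3 genes correlating best with each tested subunit. Markers and the remaining genes are named beside the results they touch. The members and lists were chosen with earlier results of these data known. Shank2 and Phgdh had no probe set of their own, 1 gene of the signalling list is not reported here, and Shank1, Rasgrf2, Dao and Grik3 lay below the filter. Alternatives covered the scaling, an added 16 or 64, filters, the rule for a gene's probe set, variance models, array weights, thresholds, mouse number as a replicate block and each mouse left out. Tables and figures used Python 3.11.15, numpy 2.4.6, pandas 2.3.3, scipy 1.17.1 and matplotlib 3.10.9.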

Additional observations from a re-analysis of the deposited data

How the results depend on the processing

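The number of subunit genes called was 1 and stayed at 1 under adding 16, no filter or a filter at the upper quartile, no variance trend, array weights, leaving out x_at and s_at probe sets, an adjusted p under 0.01 and separation by rank. It was 2 (Grin1 and Grin3a higher) after adding 64, 2 (Grin1 and Grin2c higher) with the same median, with the mean of the tested probe sets, with the replicate block and in its 8 mice (numbers 2 to 5) without the block, and 2 (Grin1 higher, Grin3a lower) with quantile normalization and with the median of the tested genes; without 1 mouse it was 1 to 3, being 3 without young mouse 1 and 2 without young mouse 2 or 4. The last scaling and the 8 mice without the block were chosen after seeing the data. The mouse numbers did not pair the arrays (same-number correlations -0.33, -0.04, 0.08 and 0.11); with the replicate block 1437968_at of Grin1 lost its call over all probe sets (0.22, adjusted p = 0.0960) and kept it across genes (adjusted p = 0.0232). Grin1 kept its call across genes in all 10 fits without 1 mouse (0.20 to 0.25). Over all genes, 5534 calls became 3685 at an adjusted p under 0.01 and 3615 by rank, and 4808 to 5561 without 1 mouse; 4068 higher and 1466 lower became 2738 and 2435 with quantile normalization and 2535 and 2862 with the median of the tested genes. Over probe sets, 10087 calls became 7603 in the 8 mice without the block, 4378 in the same mice with the replicate block and 5104 at 0.01, and 7970 to 10158 without 1 mouse.

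Directions turned mainly near 0. Grin3a turned when another probe set stood for it: 0.21 after adding 64, 0.070 with the mean of probe sets, 0.25 with the other probe set, and -0.15 to 0.27 without 1 mouse. Grin2a was -0.012 with the median of the tested genes. Grin2b 1431700_at was -0.0057 with array weights, -0.10 with the median of the tested genes, -0.021 in mice 2 to 5 with or without the replicate block, and -0.057 to 0.052 without 1 mouse. Grin3a 1458378_at was 0.0095 in mice 2 to 5 with or without the block. Of the ratios, Grin2b over Grin1 was 0.00010 with quantile normalization, Grin3a 1458378_at over 1438866_at was 0.073 with it, 0.012 after adding 64 and -0.17 to 0.057 without 1 mouse, and Grin2a over Grin2b was -0.16 to 0.027 without 1 mouse. The cause was not tested. Low signal limits Grin2a and Grin2d most.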
